A study of Mus musculus with 4 samples.

Results

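The genes described here are 10 genes of the Notch pathway, namely the receptors Notch1, Notch2 and Notch3, the ligands Jag1, Jag2 and Dll1, and the target genes Hes1, Hey1, Hey2 and Heyl. Their peaks were taken by gene symbol from 3 deposited lists of m6A-eCLIP peaks. Of the 10 genes, 9 had a peak in at least 1 list, out of 6078 genes in all, and Heyl had none in any list. They accounted for 28 of 15417 peaks in the Mettl3-knockdown list, 30 of 15439 peaks in the control list, and 0 of 1851 peaks in the list of peaks higher in the control. The genes were chosen by their membership in the pathway together with their listed peaks and log2 folds over input, and the folds are given as a description without a test.

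The cells were mouse embryonic fibroblasts made to express the oncogenes E1A and HRasV12. The knockdown cells carried shRNA that targets Mettl3, which encodes the catalytic part of the enzyme complex that writes N6-methyladenosine (m6A) into mRNA, and the control cells carried a control shRNA named for luciferase. Cells of both conditions also shared doxorubicin, a drug that breaks DNA, at 0.2 µg/ml for 6 h, so no undamaged cells enter any comparison here. Each condition had 1 m6A-eCLIP library, in which an antibody crosslinked to methylated RNA marks the modified stretches, and 1 input RNA library. The knockdown libraries are titled shMettl3, while the list of peaks higher in the control is named with shMettl3-2, a number that is not explained. Strain, embryo and pooling are not stated, and none of the differences has a replicate check.

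Notch signalling passes between touching cells. A Jagged or Delta-like ligand on 1 cell pulls on a Notch receptor on its neighbour, the receptor is cut first by an ADAM protease and then by gamma-secretase, and the freed intracellular part enters the nucleus. There it joins the DNA-binding protein Rbpj and a Mastermind-like coactivator to switch on genes such as those of the Hes and Hey families, which encode basic helix-loop-helix repressors. m6A is deposited by the Mettl3 complex mostly in long exons and around stop codons, and is read by proteins that affect the stability and translation of the mRNA.

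Peaks over input were listed for 6 of the 10 genes in the knockdown and for 8 in the control. Notch1, Notch2, Jag1, Jag2 and Hey1 had peaks in both lists, which is 5 of the 9 genes with a peak, against 72.2% of all 5469 genes with a peak over input. Notch3 alone was listed only in the knockdown list (1 of 9, against 12.9% of all genes), and Dll1, Hes1 and Hey2 only in the control list (3 of 9, against 15.0%). Not 1 of the 9 genes appeared in the authors' deposited table of peaks higher in the control, a table that names 20.1% of the genes present in any list and 11.2% of those with a peak over input. Because that table is 1-sided, a peak that is higher after the knockdown has no listed difference. Both lists over input hold only peaks with a log2 fold above 3, and a gene without a listed peak may be enriched less strongly or have too few reads. Folds over input do not give the amount of a transcript, and the read depth behind them is unknown.

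**Figure D1:**
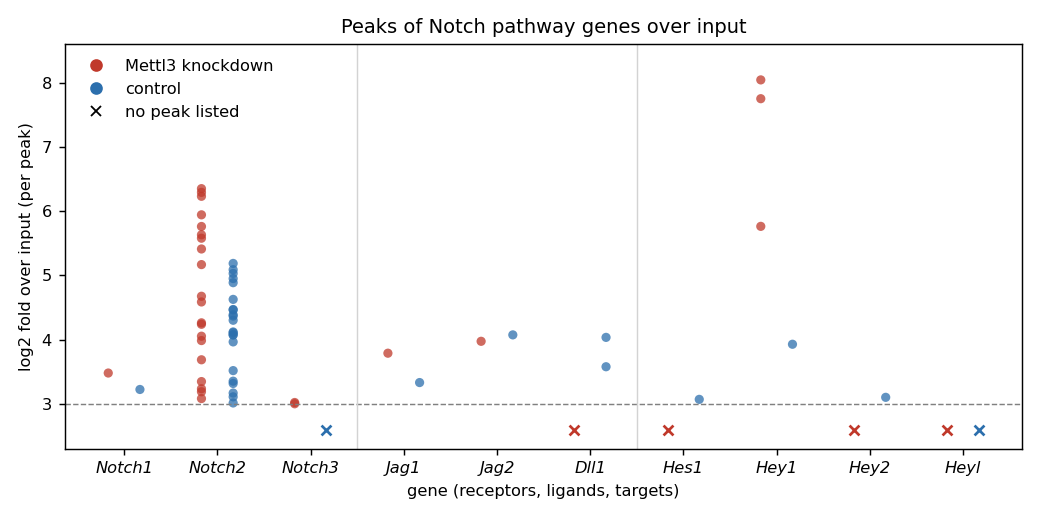
Log2 fold over input of every listed peak of the 10 genes (y axis), by gene (x axis, receptors, ligands and targets from left to right), in the Mettl3-knockdown list (red, left of each pair) and the control list (blue), 1 library each. Crosses below the dashed limit of 3 mark genes with no listed peak. Hey1 reaches 8.04 in the knockdown and 3.93 in the control, and Notch2 reaches 6.35 and 5.18.

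Among the receptors, Notch2 carried by far the most peaks of the 10 genes, with 20 in the knockdown and 22 in the control. All 42 stood on the plus strand of chromosome 3, the farthest at 3546 bases from the annotated 3' end of the gene. The largest deposited −log10 p of 400 was reached by 20 of 20 knockdown peaks and 20 of 22 control peaks. Over all genes, 57.4% of knockdown peaks and 55.9% of control peaks stood at this limit. By its largest fold Notch2 stood 44th of 4651 knockdown genes and 197th of 4765 control genes. Adjoining peaks are pieces of the same stretch, and joining those that touched left 4 stretches in each list, 3 of which overlapped between the lists.

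The first shared Notch2 stretch lay in the 3' UTR and held the highest folds of the gene. It spanned 275 bases in the knockdown list (chromosome 3, 98147643 to 98147917 of mm10) and 267 bases in the control list (98147645 to 98147911). Its borders thus differed by 2 and 6 bases. The piece with the largest log2 fold was at 6.35 in the knockdown list (98147811 to 98147815), against 5.18 in the control list (98147789 to 98147809), or 81.5-fold and 36.4-fold over input. Averaged over the 267 bases covered in both lists, the log2 fold was 5.07 in the knockdown and 4.17 in the control, a difference of 0.90. At 219 of these bases the knockdown was higher by at least 0.5.

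The second shared stretch of the Notch2 3' UTR was the longest, at 569 bases in the knockdown list (98148154 to 98148722) and 548 bases in the control list (98148152 to 98148699). Its largest log2 fold was 5.76 in the knockdown list (98148572 to 98148591), against 4.89 in the control list (98148511 to 98148550). Over its shared bases the mean was 4.40 in the knockdown and 4.13 in the control. The 2 profiles ran close together in the upstream part of the stretch and parted at its downstream peak. In the whole stretch 142 bases were higher by at least 0.5 in the knockdown and 0 in the control.

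The third shared stretch had close means over its 217 shared bases, 3.28 in the knockdown and 3.38 in the control. It spanned 217 bases in the knockdown list (98148762 to 98148978) and 251 bases in the control list (98148750 to 98149000), with a largest log2 fold of 3.69 in the knockdown and 4.08 in the control. The control was higher by at least 0.5 only at 35 adjoining bases (98148903 to 98148937). There the knockdown piece stood at 3.19 and the control pieces at 4.07 and 4.08. The authors' deposited table has 0 peaks within the span of Notch2, so no p is listed for this site.

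Each list also had 1 Notch2 stretch without a counterpart. In the knockdown list it was a coding-sequence peak of 81 bases (98146821 to 98146901) at a log2 fold of 3.35, the only Notch2 peak outside the 3' UTR. In the control list it was a 3' UTR stretch of 40 bases (98149330 to 98149369) in 2 pieces at 3.32 and 3.35, with −log10 p of 52.6 and 60.9. All 3 of these peaks lay close to the lower limit of the lists.

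**Figure D2:**
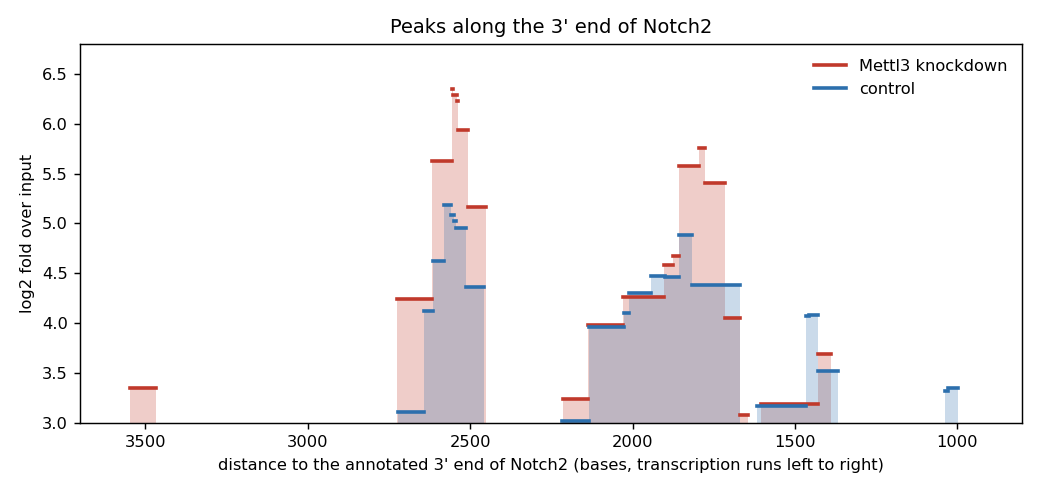
Log2 fold over input (y axis, from the lists' lower limit of 3) of the Notch2 peaks against their distance in bases to the annotated 3' end of the gene (x axis), in the Mettl3-knockdown list (red) and the control list (blue), 1 library each. Each bar is 1 listed peak. The knockdown is higher over the 2 main summits (6.35 and 5.76, against 5.18 and 4.89), and the control is higher over a short part of the third stretch (3.19 in the knockdown and 4.08 in the control).

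Notch1 had 1 peak in each list, in the 3' UTR on the minus strand of chromosome 2. It spanned 278 bases in the knockdown list (26458514 to 26458791) and 268 bases in the control list (26458519 to 26458786), so that each border differed by 5 bases. The log2 fold was 3.48 in the knockdown and 3.22 in the control, both with a −log10 p at the limit of 400.

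Notch3 was listed only in the knockdown, as 2 adjoining coding-sequence peaks covering 313 bases (chromosome 17, 32122352 to 32122664, minus strand). Their log2 folds were 3.0005 and 3.02, just inside the lower limit of the lists, while their −log10 p stood at 400. A control fold only slightly smaller would go unlisted, so the size of the difference is unknown.

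The ligands had few peaks, all in coding sequence. Jag1 had 1 peak in each list on the minus strand of chromosome 2, of 191 bases in the knockdown list (137083014 to 137083204) and 305 bases in the control list (137083017 to 137083321). Its log2 fold was 3.79 in the knockdown and 3.33 in the control, with −log10 p of 12.6 and 16.5. The peaks shared their downstream border within 3 bases, and the control peak reached 117 bases further upstream.

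Jag2 was the only gene of the 5 in both lists with a lower fold in the knockdown. Its peak covered 222 bases in the knockdown list (chromosome 12, 112909063 to 112909284, minus strand) and 224 bases in the control list (112909054 to 112909277). The log2 fold was 3.97 in the knockdown and 4.07 in the control. The −log10 p was 34.6 in the knockdown and at the limit of 400 in the control.

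Dll1 was listed only in the control. Its 2 coding-sequence peaks lay on the minus strand of chromosome 17. The longer, of 225 bases (15368446 to 15368670), had a log2 fold of 3.58 and a −log10 p of 10.4. The shorter, of 51 bases (15368960 to 15369010), had 4.03 and 3.58. No Dll1 peak was listed in the knockdown, and the authors' deposited table has 0 Dll1 peaks higher in the control.

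Among the targets, Hey1 had the highest folds. Its largest log2 fold, 8.04, ranked 3rd among 4651 genes there, while its control fold of 3.93 ranked 2284th among 4765. The knockdown list held 3 Hey1 peaks and the control list 1, all in coding sequence on the minus strand of chromosome 3. The upstream stretch, of 228 bases (8664827 to 8665054), was listed only in the knockdown, with pieces at 8.04 and 7.75. The downstream peak was in both lists, with borders differing by 1 and 2 bases, at 96 bases in the knockdown list (8664481 to 8664576) and 95 bases in the control list (8664480 to 8664574). Its log2 fold was 5.76 in the knockdown and 3.93 in the control, or 54.3-fold and 15.2-fold over input.

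The large Hey1 folds did not come with the largest support. The −log10 p was 77.5, 62.9 and 44.2 for the knockdown peaks and 3.29 for the control peak, all under the limit of 400 that the Notch2 summits reached. The linear folds of all 4 Hey1 peaks were whole multiples, within 0.0001, of a step that recurs in their list: 267, 218 and 55 steps of 0.986 in the knockdown, and 13 steps of 1.17 in the control. The same held for the Jag1 peak of the knockdown list and the shorter Dll1 peak of the control list, at 14 steps each. Such multiples made up 10.1% of all knockdown peaks and 8.67% of all control peaks, and what sets the step was not tested. Of 6 neural marker genes, 4 had a knockdown peak (Sox2, Tubb3, Nes and Pou3f2) and 1, Nes, a control peak. Their part in the Hey1 result was not tested.

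Among the 3942 other genes with peaks in both lists, those nearest to Hey1 in the pair of largest log2 folds were Qsox2, Hoxd11 and Zfp652, at distances of 0.726, 1.023 and 1.396 log2 units over the 2 libraries. The thiol oxidase gene Qsox2 had 7.33 in the knockdown and 4.05 in the control. The homeobox gene Hoxd11 had 7.05 in the knockdown and 3.69 in the control. The zinc finger gene Zfp652 had 6.98 in the knockdown and 4.83 in the control.

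Hes1, the classical Notch target of many tissues, had no knockdown peak and 1 control peak of 311 bases in coding sequence (chromosome 16, 30067296 to 30067606, plus strand). Its log2 fold of 3.07 lay just inside the lower limit, with −log10 p at 400. Hey2 likewise had no knockdown peak and 1 control peak, of 174 bases in coding sequence (chromosome 10, 30833669 to 30833842, minus strand), at a log2 fold of 3.10 and a −log10 p of 4.69. Heyl had no peak in any list.

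**Figure D3:**
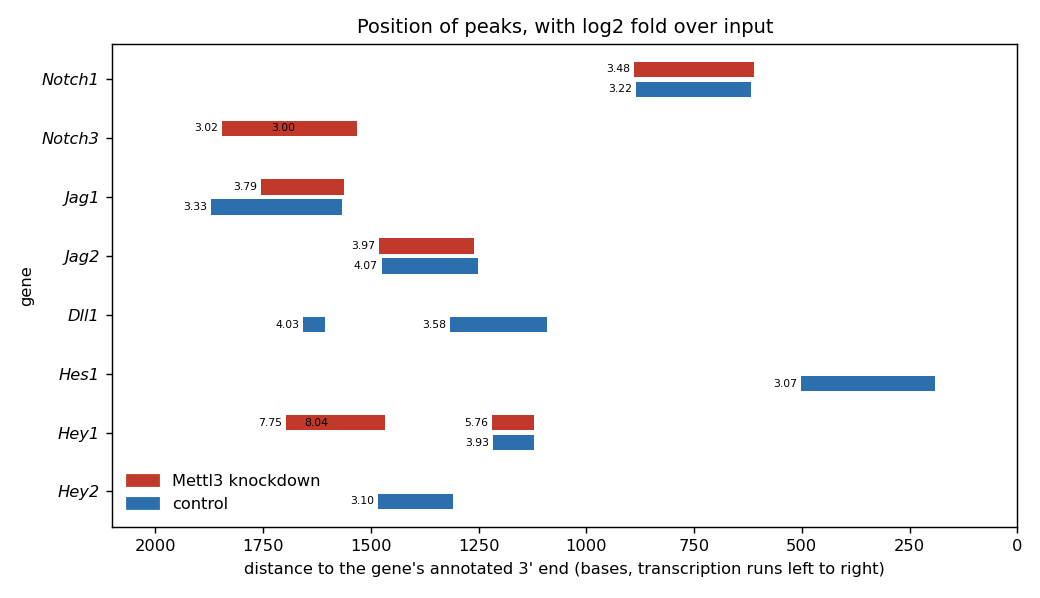
Position of each listed peak of 8 genes (y axis) as distance in bases to the gene's annotated 3' end (x axis), with the Mettl3-knockdown list in red above the control list in blue, 1 library each. Numbers give the log2 fold over input of each peak. Peaks present in both lists share their borders closely except for Jag1, and the Hey1 stretch at 8.04 and 7.75 has no control counterpart.

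The distance from a peak to the RefSeq 3' end ran from 612 to 3546 bases in the knockdown and from 190 to 2722 bases in the control list. Over all genes, 55.4% of knockdown peaks and 55.3% of control peaks with such a distance lay within 3546 bases. That limit was set by the farthest peak of these 10 genes. The genes themselves span from 2440 bases (Hes1) to 136830 bases (Notch2), so in the short genes such distances cover most of the gene.

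The region of the peaks depended on Notch2. The 3' UTR held 20 of 28 knockdown peaks (71.4%, exact 95% interval 51.3 to 86.8) and 23 of 30 control peaks (76.7%, 57.7 to 90.1), against 27.3% and 30.9% of all peaks. Without Notch2 it held 1 of 8 peaks in each list, that of Notch1. Counted as joined stretches, the 3' UTR took 4 of 10 in the knockdown and 5 of 12 in the control. No share over all genes is given for stretches. The Notch pathway peaks outside the 3' UTR all lay in coding sequence. A 5' UTR held none, against 2.39% of all knockdown peaks and 1.79% of all control peaks. Intervals cover counting error only and treat adjoining peaks as independent.

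Peaks of the other list overlapped 22 of 28 knockdown peaks (78.6%, 59.0 to 91.7) and 24 of 30 control peaks (80.0%, 61.4 to 92.3). Over all genes these shares were 83.7% and 81.1%. Without Notch2, 4 of 8 peaks were overlapped in each direction.

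At bases covered in both lists, 4 of the 5 genes had a higher mean log2 fold in the knockdown. Such a difference of any size was seen in 57.1% of all 3825 genes with shared bases. The mean difference, knockdown minus control, was 1.83 for Hey1 over 94 bases, 0.46 for Jag1 over 188 bases and 0.35 for Notch2 over 1030 bases. It was 0.26 for Notch1 over 268 bases and −0.10 for Jag2 over 215 bases. The median was 0.35 over the 5 genes and 0.06 over all genes, whose quartiles were −0.17 and 0.29. A difference of at least 0.5 was reached by Hey1 alone (1 of 5, against 13.0% of all genes), which ranked 17th of 3825. None of the 5 was at least 0.5 higher in the control, against 7.03% of all genes. Within Notch2 the difference ran from −0.89 to 1.58 along the shared bases, and the knockdown was higher at 837 of them and the control at 193.

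**Figure D4:**
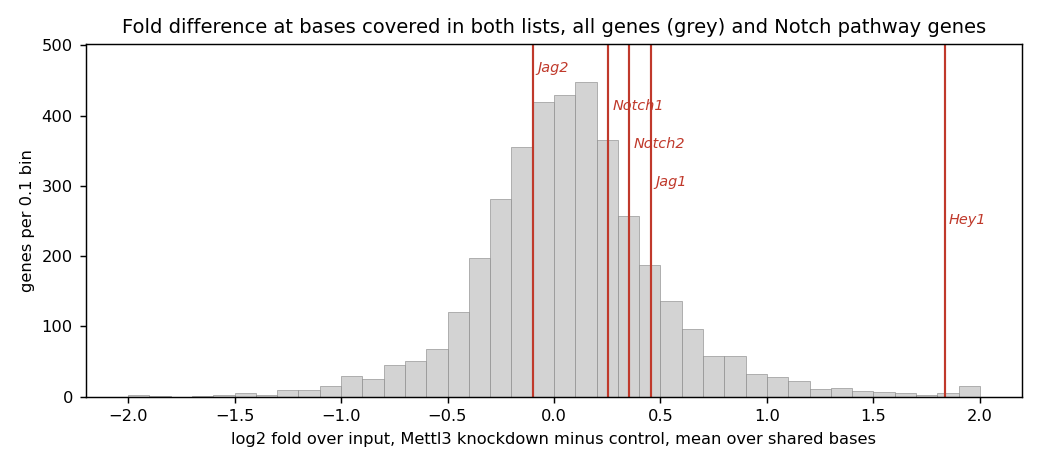
Number of genes (y axis) by the log2 fold over input in the Mettl3 knockdown minus that in the control, averaged over bases covered in both lists (x axis), for all 3825 genes with shared bases (grey, values beyond ±2 put in the end bins). Red lines mark the 5 Notch pathway genes. Jag2, Notch1, Notch2 and Jag1 lie between −0.10 and 0.46, and Hey1 lies at 1.83.

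The wider pathway was described with a list of 71 genes that contains these 10. Of the 71, 30 had a knockdown peak, 32 a control peak and 27 both, so that 27 of the 35 with a peak over input were in both lists, against 72.2% of all genes. At shared bases 16 of the 27 were higher in the knockdown, near the 57.1% of all genes. The median difference was 0.07, close to the 0.06 of all genes. A difference of at least 0.5 was seen in 1 of the 27 toward the knockdown (Hey1), against 13.0% of all genes, and in 2 toward the control, against 7.03%. Those 2 were Aph1b and Tle3. Aph1b, a gamma-secretase subunit, had 3.50 in the knockdown and 4.78 in the control. The corepressor gene Tle3 had 4.57 in the knockdown and 5.55 in the control, with its peaks in a distal intron. Neither gene is in the authors' deposited table of peaks higher in the control. Of the genes in that table, Poglut1, Ncor1, Kat2a and Fbxw7 had shared bases. Their mean differences, knockdown minus control, were 0.03, −0.44, −0.33 and −0.20, all short of 0.5.

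Peaks higher in the control lay in 9 of the 71 genes, or 9 of the 39 that appear in any list, against 20.1% of all such genes. In the authors' deposited table these were 14 peaks, of which 13 lay in the 3' UTR and 1 in coding sequence. The differences below are log2, control minus knockdown, so a positive value means lower in the knockdown. The largest was that of Rbpj, the DNA-binding partner of the Notch intracellular domain, at 1.40 (p = 3.08e-04) in the authors' deposited table, in the 3' UTR at chromosome 5, 53654016 to 53654122. Rbpj itself was without a peak over input.

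Genes that cut or modify the receptor made up 4 of the 9. The protease gene Adam10, which makes the first activating cut, had 2 peaks of 0.70 and 0.94 in the authors' deposited table, and Adam17, a related protease, had 0.70 (p = 0.0101). Ncstn, a subunit of gamma-secretase, had 0.78 (p = 5.07e-05) in the 3' UTR and 0.54 (p = 2.03e-05) in the adjoining coding sequence in the authors' deposited table. These 3 genes had no peak over input either. Poglut1, an enzyme that adds glucose to Notch, had 0.67 (p = 0.0100) in the authors' deposited table.

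In the nuclear complex, Snw1, a transcriptional cofactor also known as SKIP, had 2 peaks of 0.997 and 0.92 (p = 7.34e-07 for the second) in the authors' deposited table. The corepressor gene Ncor1 had 0.69 (p = 0.0239) in the authors' deposited table. The acetyltransferase gene Kat2a had 3 peaks of 0.55 to 0.58 and the ubiquitin ligase gene Fbxw7, which marks the Notch intracellular domain for degradation, had 0.92 (p = 0.0456) in the authors' deposited table. A knockdown peak overlapped 4 of these 14 peaks, and a control peak overlapped 6. No receptor, ligand or target gene of the wider list had a peak higher in the control. Only 3 receptors, 4 ligands and 6 targets appear in any list, and all of them had a peak over input. Over all genes with a peak over input, the share was 11.2%. A difference between the roles was not tested.

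The other pathway genes with the largest folds had peaks in both lists. The protease gene Furin, which processes the receptor on its way to the surface, reached 5.93 in the knockdown and 5.65 in the control. Bhlhe40, a helix-loop-helix repressor gene, reached 5.87 in the knockdown and 5.03 in the control. The coactivator gene Maml2 reached 5.79 in the knockdown and 5.74 in the control, and the corepressor gene Spen 5.64 in the knockdown and 4.91 in the control. The acetyltransferase genes Crebbp and Ep300 reached 5.28 and 4.83 in the knockdown, against 4.75 and 4.90 in the control. Myc reached 5.0002 in the knockdown and 5.26 in the control, and Tle3 4.57 in the knockdown and 5.55 in the control.

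**Figure D5:**
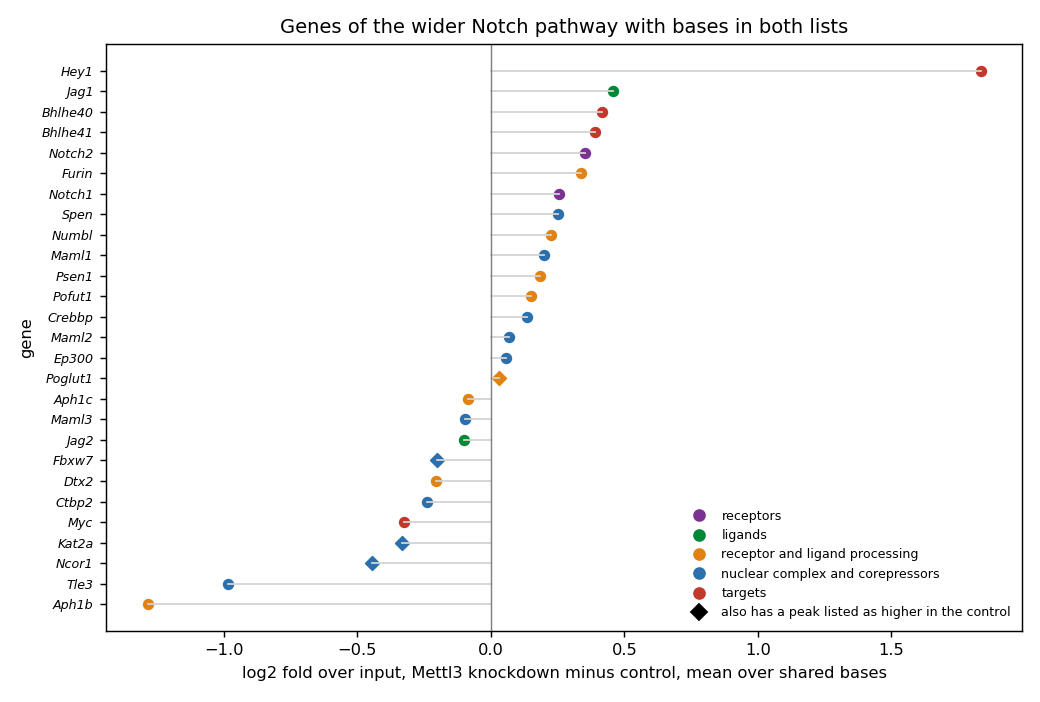
Log2 fold over input in the Mettl3 knockdown minus that in the control, averaged over shared bases (x axis), for the 27 genes of the wider Notch pathway with bases in both lists (y axis), coloured by role. Diamonds mark genes that also have a peak in the authors' deposited table of peaks higher in the control. Values run from −1.28 for Aph1b to 1.83 for Hey1, and 16 of 27 lie above 0, against 57.1% of all genes with shared bases.

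The targeted gene Mettl3 had 0 peaks in each of the 3 lists. Folds over input do not give the amount of a transcript, so the lists cannot show the extent of its knockdown. Of 15 fibroblast markers, 7 had a knockdown peak and 6 a control peak, among them Pdgfra, Pdgfrb and Prrx1, while Col1a1, Vim and Thy1 had none. None of 16 haematopoietic, epithelial and endothelial markers had a peak over input. Neural markers did: of 6, 4 had a knockdown peak and 1, Nes, a control peak. Over all genes with a peak over input, 12.9% were listed only in the knockdown.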

How the data were processed

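Peaks of mouse fibroblast m6A-eCLIP were taken from 3 lists as the authors deposited them, with 1 library per condition. Per the submitters' processing notes, reads were handled with UMI-tools 0.5.1 and cutadapt 2.7 on mm10. No source used here names the aligner, peak caller or test. For each peak the authors deposited its log2 fold over input with a −log10 p-value limited to 400, and in the comparison list a log2 difference (control minus knockdown) and a p-value of at most 0.05. Smallest values were 3.0001 for the folds and 0.50 for the difference. All are the authors' own and serve to describe peaks. Gene and region are the authors' annotation, and the 9 gene IDs matched their symbols. Starts are printed 1-based.

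Touching peaks of a gene were joined. Peaks sharing at least 1 base on the same strand were counted as overlapping. Fold differences were averaged per base covered in both lists, a procedure tested on simulated data. A difference of at least 0.5 was counted, as in the comparison list. Distances to the 3' end use RefSeq genes of GRCm38.p6, the assembly of mm10. Intervals of shares are exact Clopper-Pearson at 95%. Software was Python 3.11.15 with scipy 1.17.1, pandas 2.3.3, matplotlib 3.10.9 and numpy 2.4.6. The genes, lists and alternatives were chosen with earlier results of these data known. All 10 genes were named, as were pathway genes in the comparison list, the 8 others with the largest folds, and the 3 genes most like Hey1. Aph1b was named after its values were seen, and 1 gene of the wider pathway list is not reported here. Read depth is unknown, the input libraries enter only through the authors' folds, and peak sequences were not analysed here.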

Additional observations from a re-analysis of the deposited data

How the results depend on the processing

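No paired analysis was possible because each condition had 1 library. With a log2 fold of at least 4, the genes with a peak numbered 2 in the knockdown list (Notch2 and Hey1) and 3 in the control list (Notch2, Jag2 and Dll1). Their peaks then numbered 17 in each list, and their joined stretches 4 in the knockdown and 5 in the control. With only peaks at the upper limit of −log10 p, there were 3 genes in the knockdown (Notch1, Notch2 and Notch3) and 4 in the control (Notch1, Notch2, Jag2 and Hes1), with 6 joined stretches in each list. At that setting the 3' UTR share was 87.0% in the knockdown and 91.3% in the control. By joined stretches it was 40.0% and 41.7%, and no share over all genes is given in that unit. By bases it was 49.8% in the control, against 25.4% of the bases of all control peaks. Genes of the wider pathway with a peak higher in the control numbered 1 of 71 at a log2 difference of at least 1 (Rbpj) and 4 at p of at most 0.001. A count by the largest fold of a gene, which was chosen after seeing the data, put 2 genes at least 0.5 higher in the knockdown, Hey1 and Notch2. With only peaks at the upper limit of −log10 p, also chosen after seeing the data, 0 of the 2 genes that remained were, since Hey1 was no longer included. The other 36 values stayed within 1.5 times the count reported, within its interval or within the spread between the genes. They include the count of 0 for the 10 genes among the peaks higher in the control, under 3 alternatives. Those alternatives only remove peaks, so that count could not change and its staying at 0 shows nothing.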
